A study of Mus musculus with 8 samples.

Results

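The genes described here are those of the proteasome, chosen by name as the protein-coding genes whose symbol begins with Psm, a letter from a to g and a number. The rule found 51 of the 55416 genes in the count table, and all 51 had enough counts for a test. Of these, 49 encode subunits, activators, an inhibitor or assembly chaperones of the proteasome. The remaining members, Psmc3ip (a cofactor of meiotic recombination) and Psme3ip1 (a nuclear partner of the Psme3 product), matched the rule by name and are not counted among these. Polyadenylated RNA of the cerebral cortex was sequenced in 4 libraries from mice heterozygous for the L192P substitution in Ago2 (AGO2_L192P/+, here L192P) and in 4 from wild-type mice (WT). The substitution was placed in the endogenous Ago2 gene with CRISPR/Cas on a C57BL/6 background and the line was kept by crossing heterozygous with WT animals, so that every cell type of the tissue carries 1 changed and 1 normal copy. The sources used here do not give the age of the animals behind the cortex libraries. The question was which cortical transcripts differ in abundance between the genotypes.

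The proteasome is the protease that degrades proteins tagged with ubiquitin. Its core particle (20S) is a stack of alpha and beta rings, and the proteolytic sites lie inside on the beta subunits Psmb5, Psmb6 and Psmb7, which interferon-induced cells exchange for Psmb8, Psmb9 and Psmb10. The regulatory particle (19S) binds ubiquitin chains, removes them and threads the substrate into the core with a ring of ATPases, while other caps such as PA28 (Psme1 with Psme2, or Psme3 alone) and PA200 (Psme4) open the core without ubiquitin. In cells short of proteasome activity the transcription factor Nfe2l1 (Nrf1), paired with a small Maf protein, raises most subunit genes together through antioxidant response elements. In neurons the complex is known for protein quality control and for the turnover of synaptic proteins.

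No member was called different between L192P and WT cortex. With DESeq2 and a Benjamini-Hochberg adjusted p under 0.05 as the call, 0 of 51 members passed against 253 of 18627 tested genes (1.36%), and the members' adjusted p ran from 0.140 to 0.999. At an unadjusted p under 0.05 there were 2 members, the activator genes Psme1 and Psme3, where 1758 of 18627 tested genes (9.44%) met the same limit. The quasi-likelihood test of edgeR and limma-voom also called 0 members. The replicate numbers were taken to pair the libraries of both genotypes from correlations in these data, since the labels give no pairing. With the replicate block in DESeq2 0 of the 46 members that received an adjusted p were called, where 533 of 12536 genes (4.25%) were. Read against these shares, the members' counts of 0 lie near the background.

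The differences were small as well as uncalled. The log2 fold change of L192P over WT was below zero for 32 members and above zero for 19, with a median of -0.026, and the median over all tested genes was 0.0019. Among genes with a mean of at least 1000 normalized counts the median was -0.032 for 35 members and -0.015 for 5425 genes. The 95% interval lay inside ±0.25 on the log2 scale, a change of up to 18.9%, for 39 members. The same held for 5502 of the 18627 tested genes, and at the level of 1000 or more for 33 of 35 members and 3790 of 5425 genes. The sign of the small differences depended on the scaling for some members, since 26 were below and 18 above zero under each of the 3 scalings tried, whereas total-count scaling moved the median over all genes to 0.026 and put 25 members above zero. In bulk tissue, fewer cells of a type and less RNA per cell cannot be told apart.

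**Figure D1:**
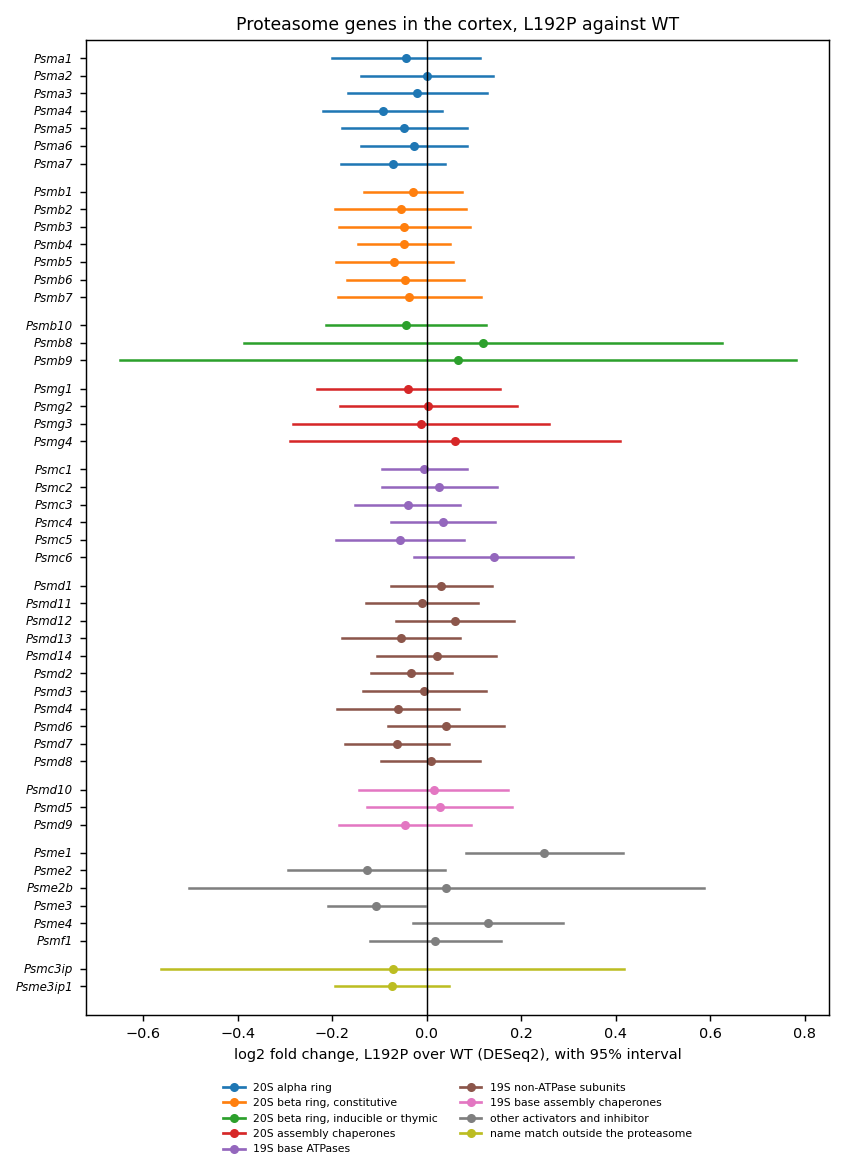
Log2 fold change of L192P over WT on the x axis (DESeq2, point) with its 95% interval (line) for 49 members by role. The name matches Psmc3ip and Psme3ip1 are included, and Psma8 and Psmb11, which had few counts, are left out. All constitutive beta ring genes lie below zero with intervals that cross it, and Psme1 lies farthest to the right at 0.25.

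The total proteasome message did not separate the genotypes. The 51 genes together took 0.418% to 0.438% of all counts in the L192P libraries and 0.409% to 0.449% in the WT libraries, so that the L192P values fell inside the WT range. The members were also steady between libraries. Over the 8 libraries, the coefficient of variation of the 35 members with at least 1000 normalized counts had a median of 4.86%, from 1.79% for Psmc1 to 9.66% for Psmc6, beside a median of 6.60% for the 5425 tested genes at that level. The libraries held 20396357 to 25579982 counts in L192P and 21369237 to 43575900 in WT. Replicate 1 of both genotypes stood apart in carrying almost no Xist, the X-inactivation transcript of female cells, with 0.934 and 1.82 normalized counts where the other 6 libraries had 5185 to 7257. They also had the lowest summed astrocyte markers, 13335 in L192P and 14704 in WT against 18725 to 21025 in the others. The summed markers of oligodendrocytes, microglia, endothelial and mural cells and the interferon response were lowest in the same libraries. For 10 members, among them Psma1, Psma2, Psma3, Psmb7, Psmc2 and Psmc6, both replicate 1 libraries lay above all 6 others, and for 1, Psmc5, below. The same held for 8.86% and 9.89% of the tested genes.

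**Figure D2:**
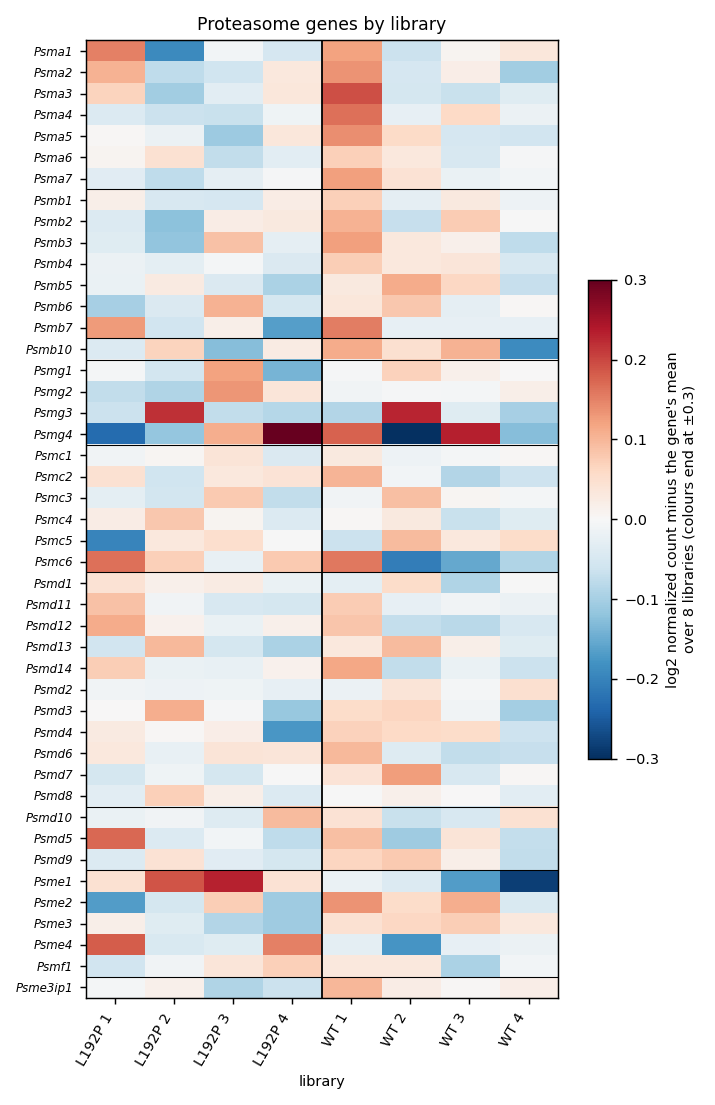
Log2 normalized count of the members with a mean of at least 100 normalized counts (rows, ordered by role and separated by lines) in each of 8 libraries (columns), as the difference from the gene's own mean. WT replicate 1 is above the mean for most core genes, and Psme1 is the row in which the 4 L192P libraries are all above the 4 WT libraries.

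Most genes of the core particle had slightly lower means in L192P, none past the test. All 7 genes of the constitutive beta ring had a log2 fold change below zero, from -0.068 (Psmb5) to -0.029 (Psmb1), and 7 of the 8 alpha ring genes did, the exception being Psma8, which had few counts. The smallest adjusted p among these was 0.742 (DESeq2, Psma4, log2 fold change -0.093 ± 0.064 SE). The summed normalized counts of the constitutive beta ring were 17676 ± 360.3 (SD, n = 4) in L192P and 18240.1 ± 581 in WT, a difference of -3.09% that is less than either group's range of libraries. For the alpha ring the sums were 17286 ± 607 and 17777 ± 976, a difference of -2.76%. Both groups overlapped in these sums, with L192P libraries at 17370.2 to 18095 against 17539 to 18962 for the beta ring and 16693 to 18013 against 17156 to 19233 for the alpha ring. The ATPases of the regulatory particle differed by -0.055% and its 11 non-ATPase subunits by -0.85%.

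Psmb5, the subunit with chymotrypsin-like activity, had 2109, 2182, 2075 and 2003 normalized counts in L192P replicates 1 to 4 and 2182, 2312, 2234.5 and 2038 in WT. Psmb6, with caspase-like activity, had 2455, 2551, 2829 and 2535 in L192P and 2693, 2780.4, 2582 and 2636 in WT. Psmb7, with trypsin-like activity, had 2515, 2213, 2330.2 and 2052 in L192P and 2562, 2262, 2263 and 2264 in WT. The groups overlapped for each of these catalytic genes, and their log2 fold changes were -0.068, -0.045 and -0.037. The 95% intervals in percent were -12.4 to 3.87 for Psmb5, -11.1 to 5.63 for Psmb6 and -12.3 to 8.31 for Psmb7.

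RefSeq promoter windows, 250 bases before to 50 after the start on build GRCm38.p6, were found for 43 of the 51 members. The antioxidant response element, read as TGACNNNGC on either strand, was present in 6 of 43 (14.0%) and in 16.6% of 11784 tested genes with a window. The members were Psmb5, Psmb6, Psmc6, Psmd9, Psmd12 and Psme4, and the windows of both catalytic genes and of Psmd9 are shown because this is the element that Nfe2l1 and Mafg are known to bind. Capitals mark the element within 10 flanking bases on each side.
Psmb5, chr14:54618024-54618052, - strand: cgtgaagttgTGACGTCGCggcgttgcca
Psmb6, chr11:70525338-70525366, + strand: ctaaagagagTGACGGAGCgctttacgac
Psmd9, chr5:123228149-123228177, + strand: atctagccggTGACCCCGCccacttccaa
The log2 fold changes of these members ranged from -0.068 for Psmb5 to 0.14 for Psmc6, on both sides of zero. The CCAAT box (CCAAT, either strand) was present in 16 of 43 members (37.2%) and 42.5% of all, and the gamma-activated sequence (TTCNNNGAA) in 3 (6.98%) and 8.11%.

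The interferon-induced counterparts were scarce in this tissue. Psmb8 had 38.3, 55.8, 56.5 and 38.3 normalized counts in L192P and 37.3, 49.7, 47.8 and 37.5 in WT, and per kb its level was 1.71% to 2.72% of that of Psmb5. Psmb9 had 20.6, 31.9, 35.7 and 11.98 in L192P and 21.9, 24.3, 26.1 and 23.4 in WT, and per kb lay at 0.362% to 0.967% of Psmb6. Psmb10 was the exception with 927, 998, 873 and 970.3 in L192P and 1029.9, 986, 1025 and 837 in WT, or 32.6% to 41.8% of Psmb7 per kb. The groups overlapped in all of these, the log2 fold changes were 0.12, 0.065 and -0.044, and the sign of Psmb9 changed with the fit. Psmb9 shares exon sequence with Tap1 on the opposite strand. The pair of members known from other organs was at the edge of detection, with 0 to 14 raw counts a library for Psmb11 (the thymic beta subunit) and 1 to 9 for Psma8 (the alpha subunit of testis), and for them no fold change is read.

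Apart from the barely detected Psmb11, the member farthest from zero belonged to the PA28 activator. Psme1 (GRCm39 chr14:55815190-55822034, + strand), which encodes its alpha subunit, had 936, 1032, 1063 and 934 normalized counts in L192P and 894, 881, 807 and 746 in WT. Every L192P library was above every WT library, and Psme1 was the 1 member of 51 for which this held, where 561 of 18627 tested genes (3.01%) showed the same. On the log2 scale the fold change was 0.25 ± 0.085 (SE), a difference of 18.8% with a 95% interval from 5.87% to 33.4%. The DESeq2 p was 0.003 and the adjusted p 0.140. The exact two-sided permutation p was 0.0286, the smallest that 4 against 4 libraries allow. Any gene whose groups do not overlap gets this permutation p, so it adds nothing to the lack of overlap. With the replicate block the adjusted p was 0.0592, and edgeR gave 0.230. Without replicate 1 of both genotypes Psme1 passed the threshold, with a log2 fold change of 0.31 and an adjusted p of 0.0414 in DESeq2. That setting called 500 genes over all, against 253 in the full design. Over all alternatives the adjusted p of Psme1 ran from 0.0414 to 0.531.

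Psme2 (GRCm39 chr14:55824895-55829173, - strand), which encodes the beta subunit of the same ring, lay on the other side of zero. It had 591, 641, 699 and 617 normalized counts in L192P and 729, 689.7, 716 and 644 in WT, with groups that overlapped, a log2 fold change of -0.13 ± 0.084 and an adjusted p of 0.719 (DESeq2). Psme1 as a percentage of Psme2 was therefore 158, 161, 152 and 151 in L192P and 123, 128, 113 and 116 in WT, a mean of 155.7 ± 4.71 (SD, n = 4) against 119.7 ± 6.75, in counts not divided by length. These ratios did not overlap between the genotypes. They were formed with the values of Psme1 in view and carry no test. Psme2b, a copy of Psme2 with 99.4% identity over 795 bases, had 35.9 to 70.6 normalized counts, and reads could have been split between both genes. Psme1 shares exon sequence with Emc9 on the opposite strand and Psme2 with Rnf31. Emc9 had a mean of 539.7 in L192P and 556 in WT (log2 fold change -0.048), Rnf31 487 and 499.8 (-0.038). Whether the authors counted by strand is not given in the sources used here, and without it reads of such partners cannot be told apart.

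In the RefSeq promoter windows (GRCm38.p6) described above, the interferon-stimulated response element (GAAA, any 2 bases and GAAA again, on either strand) was present in 5 of 43 members (11.6%) and 3.66% of all. The members were Psmb3, Psmd4, Psmd9, Psme1 and Psmg4. The Psme1 copy begins at base 10 of the transcript and is shown in capitals because Psme1 had the largest difference of the members with more than 20 counts.
Psme1, chr14:55578493-55578522, + strand: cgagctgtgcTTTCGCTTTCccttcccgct
Psme2, Psmb8 and Psmb9 had no match to this element in their windows. The 250 bases before the start are shown for both PA28 genes, whose ratio did not overlap between the genotypes, and hold no match to any of the 4 motifs.
Psme1, chr14:55578244-55578493, + strand: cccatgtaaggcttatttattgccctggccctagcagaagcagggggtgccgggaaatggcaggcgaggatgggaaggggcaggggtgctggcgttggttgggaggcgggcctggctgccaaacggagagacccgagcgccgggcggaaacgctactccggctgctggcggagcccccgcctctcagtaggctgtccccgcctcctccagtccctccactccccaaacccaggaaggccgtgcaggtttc
Psme2, chr14:55591102-55591351, - strand: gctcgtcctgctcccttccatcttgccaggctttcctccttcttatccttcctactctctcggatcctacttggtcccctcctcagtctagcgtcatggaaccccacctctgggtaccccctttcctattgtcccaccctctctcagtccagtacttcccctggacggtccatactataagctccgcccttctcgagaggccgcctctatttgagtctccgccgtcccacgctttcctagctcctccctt
The share of G and C was 66.8% for Psme1 and 57.2% for Psme2.

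**Figure D3:**
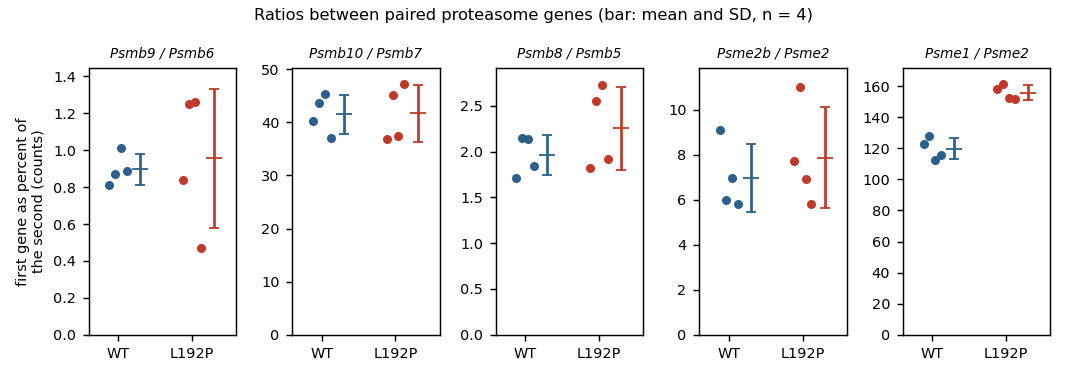
Count of the first gene as a percentage of the second in each library (points), with the mean and SD of 4 libraries (bars), for interferon-induced over constitutive catalytic genes and for the PA28 pairs. Each axis starts at 0. The Psme1 to Psme2 ratio is 151% to 161% in L192P and 113% to 128% in WT, and the groups overlap in the other panels.

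Psme3 (GRCm39 chr11:101206777-101215813, + strand), which forms the nuclear PA28 gamma ring, was the 1 member with every L192P library below every WT library, as were 551 of 18627 tested genes (2.96%). It had 3429, 3302, 3189 and 3148 normalized counts in L192P and 3500.4, 3537, 3567 and 3466 in WT. Its difference was -0.11 ± 0.052 (SE) on the log2 scale, with an unadjusted p of 0.042 and an adjusted p of 0.495 in DESeq2. The exact permutation p was again 0.0286, as for any gene with groups that do not overlap. Psme4, the PA200 gene, had 1212, 1037, 1042 and 1187 in L192P and 1047, 945, 1050.4 and 1057 in WT, with overlapping groups, a log2 fold change of 0.13 and an adjusted p of 0.678. The inhibitor gene Psmf1 (PI31) was at 901 ± 34.6 in L192P and 888 ± 36.1 in WT. The activators thus held the members farthest from zero in both directions among those with more than 100 counts, and the sums over the role differed by -0.58%.

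**Figure D4:**
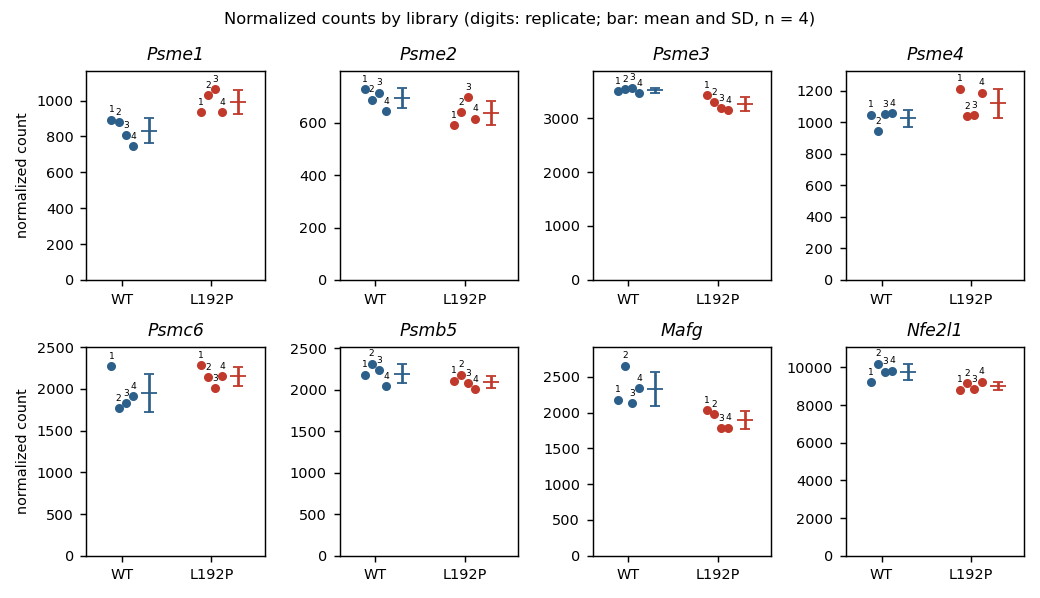
Normalized counts by library (points, with the replicate number) and the mean and SD of 4 libraries (bars) for 6 proteasome genes and for the transcription factor genes Mafg and Nfe2l1, on axes that start at 0. Only in the Psme1, Psme3 and Mafg panels do the 4 L192P points stand clear of the 4 WT points.

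Among the ATPases, Psmc6 had the largest log2 fold change, 0.14 with an adjusted p of 0.661 (DESeq2). Its counts were 2289.8, 2145, 2009 and 2155 in L192P and 2278, 1769, 1834 and 1918 in WT, so WT replicate 1 alone lay within the L192P range. It passed the threshold in 1 of 16 alternatives, without WT replicate 1, which called 496 genes over all against 253 in the full design. There its log2 fold change was 0.23 and its adjusted p 0.0465 (DESeq2). Without replicate 1 of both genotypes the values were 0.19 and 0.116, and over the alternatives the adjusted p ran up to 0.9997 (without WT replicate 2). The other 5 ATPase genes lay between -0.057 (Psmc5) and 0.035 (Psmc4), and the non-ATPase subunits between -0.063 (Psmd7) and 0.059 (Psmd12). These include the ubiquitin receptor gene Psmd4 at -0.060, the scaffold gene Psmd2 at -0.032 and Psmd14, the deubiquitinase of the lid, at 0.021. The chaperones of the base, Psmd5, Psmd9 and Psmd10, were at 0.028, -0.046 and 0.014, and those of the core, Psmg1 to Psmg4, at -0.039, 0.0032, -0.012 and 0.060. Every adjusted p in these groups was 0.661 or higher.

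Levels between genes were compared per kb of the canonical transcript, as the mean of 8 libraries. Psmb4 was the most abundant member at 3836 ± 116 normalized counts per kb (SD, n = 8), followed by Psmc5 at 3437 ± 212 and the alpha subunit gene Psma7 at 3020.2 ± 128. The highest non-ATPase subunit was Psmd4 at 2263 ± 124, which did not differ from Psmd7 (2254 ± 96.0) or Psmd2 (2214 ± 42.2) beyond their spread. Levels were unequal between subunits of the same ring, and within the constitutive beta ring Psmb2 lay lowest at 333 ± 17.4. The core chaperones were low, from 215 ± 21.8 (Psmg3) to 327 ± 17.4 (Psmg1), as were the base chaperones at 343 (Psmd9) to 400.5 (Psmd10). These orders depend on the transcript chosen, since per kb of all exons combined the highest alpha ring gene was Psma5 and the highest ATPase gene Psmc1. The canonical transcripts of Psmb1, Psmb2 and Psme1 carry long 3′ ends of 5202, 3288 and 3196 bases, which lowers their value per kb. Per kb of all exons combined Psmb2 was again the lowest constitutive beta ring gene, at 143.

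**Figure D5:**
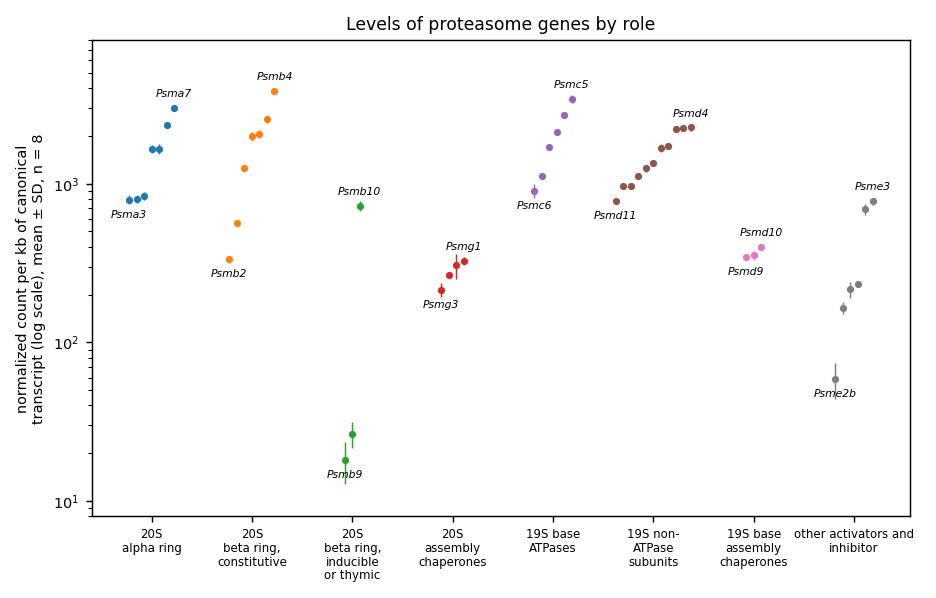
Mean level per kb of canonical transcript over 8 libraries (points, log scale, bars for the SD) for each proteasome gene by role, leaving out Psma8 and Psmb11. Constitutive core and regulatory particle genes lie between 333 and 3836, and Psmb8 and Psmb9 lie below all other genes shown.

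The members did not all rise and dip together across the 8 libraries. The correlation of a member with the mean of the other members was highest for Psma5 (r = 0.84), Psmb4 (0.79) and Psma4 (0.74) and lowest for Psmc5 (-0.45), Psmd2 (-0.39) and Psmg2 (-0.35). The genes outside the rule whose pattern was most like the members' mean were Selenoh (r = 0.956), Gtf2f2 (0.947) and Rnf32 (0.943), over the same 8 libraries and with log2 fold changes of -0.030, -0.043 and -0.012. The libraries share depth and replicate number in these values, which are a description only.

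Of the genes that act with the proteasome, 36 of a list of 37 were matched by name and 35 tested, and 1 was called, where 1.36% of all tested genes were. Mafg, a small Maf partner of Nfe2l1, had 2029, 1984, 1787 and 1789.6 normalized counts in L192P and 2183, 2657, 2129 and 2346 in WT, so all L192P libraries lay below all WT libraries. It fell by 0.30 ± 0.084 (SE) on the log2 scale, with an adjusted p of 0.0365 (DESeq2), and the adjusted p ranged from 0.00114 with the replicate block to 0.210 without WT replicate 2. The call was lost in 9 of 16 alternatives, which include leaving out L192P replicate 2, 3 or 4 or WT replicate 2 or 4, with log2 fold changes of -0.32, -0.27, -0.27, -0.23 and -0.29 in that order. Nfe2l1 itself had 8816 to 9244 in L192P and 9219 to 10192 in WT, overlapping by 1 library of each genotype, with a log2 fold change of -0.11, a p of 0.028 and an adjusted p of 0.415. Ubqln4, which shuttles ubiquitylated proteins to the proteasome, had 3441, 3655, 3551 and 3916 in L192P and 3707, 4420.2, 4296 and 4530.5 in WT. The log2 fold change of Ubqln4 was -0.22 with an adjusted p of 0.141, and the replicate block made it a call at 0.00204.

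The other listed genes gave no call in DESeq2, and 3 of 35 (Mafg, Nfe2l1 and Ubqln4) had an unadjusted p under 0.05, where 9.44% of all tested genes did. The 12 further proteasome components lay between -0.077 (Pomp, the maturation chaperone of the core) and 0.12 (Uchl5, a proteasomal deubiquitinase), with the ubiquitin receptor gene Adrm1 at -0.026. All 6 ubiquitin and E1 enzyme genes were above zero, with Ubb at 0.012 and the E1 enzyme gene Uba6 at 0.17, and the unfoldase gene Vcp was at 0.035.

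Psme1, Psme2 and Psmb8 to Psmb10 are among the known targets of interferon, and markers of interferon response and of immune cells were read beside them. Psme1 and its partner Psme2 lay on opposite sides of zero, at 0.25 and -0.13. None of the 9 interferon response genes was called, and their summed level was 2710.2 to 3761 in L192P and 2788 to 3629 in WT, with log2 fold changes from -0.17 (Tap1) to 0.10 (Irf1), 5 above zero and 4 below. Of the 5 microglia genes 4 were above zero and 0 called (1 with the replicate block, Cx3cr1, log2 fold change 0.30, adjusted p 0.0416 in DESeq2). P2ry12 and Tmem119 passed the threshold in at least 1 alternative, Csf1r and Aif1 in none. The microglia sums of replicates 1 to 4 were 3180.2, 5155, 5670.5 and 4668 in L192P and 3301, 4156, 4163 and 4077 in WT. Replicate 1 was lowest in both genotypes, and over all libraries the sums overlapped. In replicates 2 to 4 every L192P sum lay above every WT sum. Without replicate 1 of both genotypes 18.98% of all tested genes did not overlap, so this is not read as a change. The 5 lymphocyte genes summed to 84.1 to 103 in L192P and 51.5 to 74.6 in WT, without overlap, through Ptprc (means of 82.9 and 53.9, DESeq2 adjusted p = 0.139), whereas Cd3e and Cd3g had means under 3. The labelled tissue showed its markers, with means of 30262 in L192P and 33185 in WT for Slc17a7 (of cortical excitatory neurons). Excitatory neuron genes were below zero for 5 of 5, with sums of 124441 to 136468 in L192P and 132817 to 161822 in WT. None of them was called in DESeq2, and 3 of 5 (Nrgn, Neurod6 and Slc17a7) were called lower with the replicate block. That fit, which also called Cx3cr1 and Pvalb, called 533 of 12536 genes (4.25%) over all, with the pairing taken from these data. Of 5 inhibitory neuron genes 3 were above zero and Gad2 was called higher (log2 fold change 0.34, adjusted p = 0.0235 in DESeq2). Over the alternatives the adjusted p of Gad2 ran from 3.9e-06 to 0.155, the latter in edgeR, where it was not called. Pvalb was at -0.22 (adjusted p = 0.121 in DESeq2 and 0.00907 with the replicate block, called lower there) and Sst at -0.044. The part of these genes in the Psme1 values was not tested.

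Because Argonaute 2 acts through miRNA seeds paired with 3′ UTRs, the members were read for 7-base seed sites of 11 miRNA families known in brain, in the annotated 3′ UTR of each gene's canonical transcript (GENCODE M39, GRCm39). The seed of miR-124-3p, a miRNA abundant in neurons, was not analysed here. The 3′ UTRs of the members were short, with a median of 379 bases against 1343 for 15050 tested protein-coding genes, and 29 of 51 (56.9%) were under 500 bases where 23.5% of all were. No site of the 11 families was found in 28 of 51 members (54.9%) and 30.9% of all genes. Within the genes of short 3′ UTR the shares without a site were 82.8% and 75.6%, and within the longer ones 18.2% and 17.2%, so the members differed little from other genes of like length. The let-7a-5p seed had no site in any member and in 11.4% of all genes, and the miR-128-3p seed had the most, in 10 members (19.6%) and 24.3% of all.
let-7a-5p: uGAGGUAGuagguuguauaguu
miR-128-3p: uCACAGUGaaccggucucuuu
miR-138-5p: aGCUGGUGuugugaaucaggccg
miR-103-3p: aGCAGCAUuguacagggcuauga
miR-30a-5p: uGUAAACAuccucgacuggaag
miR-29a-3p: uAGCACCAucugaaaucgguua
These mature sequences are from RefSeq, with the seed (bases 2 to 8) in capitals. The last 5 have sites in Psme1 or Psme3, the members whose groups did not overlap, which are given here with the site in capitals and 10 bases on each side.
Psme1 site of miR-138-5p, chr14:55818981-55818987, + strand: catagttgccCACCAGCccatgtcttt
Psme1 site of miR-103-3p, chr14:55820564-55820570, + strand: tacttttcagATGCTGCccagaaccta
Psme1 site of miR-128-3p, chr14:55821098-55821104, + strand: gtcatctggcCACTGTGgtcaaaacag
Psme3 site of miR-30a-5p, chr11:101212860-101212866, + strand: ttctgtgacgTGTTTACctcttttttc
Psme3 site of miR-103-3p, chr11:101213856-101213862, + strand: gtgtgttaatATGCTGCgaaggtcaaa
Psme3 site of miR-29a-3p, chr11:101214369-101214375, + strand: ctgcagacccTGGTGCTgtactctggt
Both genes hold a site of miR-103-3p, and they lay on opposite sides of zero. The 23 members with a site of any of the families had a median log2 fold change of -0.012 and the 28 without one -0.036, while the medians over all tested protein-coding genes were 0.0040 and 0.000061. The difference between the 2 medians of the members was not tested. A site is a match of letters and no measurement of binding.

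Overlap with other genes limits some of the values. An exon of another gene on the opposite strand overlapped 24 members, of which 17 share it with a protein-coding gene, as Psmc5 does with Smarcd2 and Psmd13 with Sirt3. A near copy of at least 95% identity over 500 bases was found elsewhere in the transcriptome for 10 members, among them Psma3 (Gm13835, 100% over 665 bases) and Psmb5 (Gm3375, 99.0% over 795 bases). The copies of 6 members summed to more than 1% of the member's level.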

How the data were processed

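In all, 8 stranded mRNA libraries of cortex were compared, 4 L192P and 4 WT. Per the labels and the study's methods the authors aligned reads with STAR (2.7.9a in the submitters' notes) to GRCm39, tallied them per gene with featureCounts 1.5.1 and deposited raw counts of each library without pooling. The annotation release and strand setting are not given in the sources used here. A second deposited table, of normalized values, was not used. Library totals were 20396357 to 43575900 counts. The median SE of the log2 fold change was 0.125 over all tested genes. At a mean of 1000 or more it was 0.072, but the largest SE there was 1.85, so precision is also limited for some abundant genes.

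DESeq2 1.42.0 (R 4.3.3) was fitted to all counts with genotype as the term. As in the study, a call meant an adjusted p (Benjamini-Hochberg) of less than 0.05 whatever the fold change. Normalized counts are counts divided by size factors, fold changes are unshrunken, and intervals are 1.96 SE. Independent filtering removed genes with a mean below 5.83. Alternatives were edgeR 4.0.16, limma-voom 3.58.1, TMM or total-count factors, at least 10 counts in at least 4 libraries, no independent filtering, the replicate block, and leaving out libraries. Scripts were tested on simulated data.

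Deviations from the group means correlated between same-numbered libraries at 0.63, 0.38, 0.23 and 0.33 and between others at -0.38 to 0.14, so the numbers were taken to pair the libraries. The labels do not say that replicates are separate animals, and p-values measure the spread between these libraries. Positions and 3′ UTRs are from GENCODE M39 (GRCm39), near copies from BLAST 2.17.0, and miRNAs and promoters from RefSeq (promoters on GRCm38.p6). All members were accounted for by role. Values per library were given for members or pathway genes with an unadjusted p under 0.05, the catalytic genes, their induced counterparts and PA28, and Psmc6 and Psme4 were added after their values were seen. The members and gene lists were chosen with earlier results of these data known.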

Additional observations from a re-analysis of the deposited data

Results flagged for a closer look

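In 9 of 108 groups of 4 libraries, 1 library stood far from the other 3 by Dixon's gap-to-range ratio at 95%, and chance alone gives about 1 in 20 groups, or 5.4. The values are normalized counts. WT replicate 1 was the distant library for Psma3 at 3252 (others 2717 to 2773), Psmb7 at 2562 (others 2262 to 2264) and Psmd11 at 2352 (others 2193 to 2217). L192P replicate 2 was the distant library for Psmc2 at 3109 (others 3313 to 3349), Psmd6 at 1839 (others 1909.6 to 1917) and Psmg3 at 221.9 (others 179.7 to 182). Psmd4 was low in replicate 4 of both genotypes, at 2666 in L192P (others 3018 to 3068) and 2885 in WT (others 3126 to 3156). Psme4 was low in WT replicate 2 at 945.1 (others 1047 to 1057).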

How the results depend on the processing

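The members' median log2 fold change stayed between -0.040 and -0.0023 over 16 alternatives, and 14 of them called 0 members. The call count was 1 without replicate 1 of both genotypes (Psme1), and 0 to 1 when single libraries were left out (Psmc6, without WT replicate 1). The settings that called Psme1 and Psmc6 also called more genes over all, 500 and 496 against 253 in the full design. These member calls are therefore not read as a change. Members with groups that did not overlap numbered 1 with total-count factors, 6 without replicate 1 of both genotypes and 2 to 6 without single libraries. Over all tested genes 5.97% did not overlap in the full design, 18.98% without replicate 1 of both genotypes and 8.40% to 12.6% without single libraries, so the rise in members is not read as a change. Pathway calls numbered 2 with the replicate block (Mafg and Ubqln4) and without replicate 1 of both genotypes, 0 with total-count factors, edgeR, limma-voom or no independent filtering, and 0 to 2 without single libraries. The replicate block moved the number of calls over all genes from 253 to 533, edgeR to 53 and limma-voom to 45, and leaving out single libraries gave 112 (without WT replicate 4) to 496 (without WT replicate 1). Psmb9 changed sign with the replicate block (-0.0070) and limma-voom (-0.039) and ran from -0.15 to 0.29 without single libraries, and Psmb7 ran from -0.090 to 0.010. The causes were not tested. Low counts limit Psmb8, Psmb9, Psma8 and Psmb11.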
